A study of Mus musculus with 64 samples.

Results

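The 10 genes examined are expressed by the endothelial cells that line the hepatic sinusoids, though not all of them only there. They are Stab1, Stab2, Lyve1, Clec4g, Fcgr2b, Oit3, Kdr, Flt4, Pecam1 and Cdh5. They were chosen by name, as 10 of the 23338 genes listed in each deposited count file, and all 10 were found. RNA-seq read counts were available for 64 libraries from C57BL/6 mice (C57BL/6 J in the study's methods), and the labels name no transgene or treatment. The groups were 12 single eight-cell embryos (6 male, 6 female, from 4 litters), 4 embryonic stem (ES) cell lines (2 male, 2 female), 24 fetal livers (12 male, 12 female) and 24 adult livers (12 male, 12 female). Eight-cell embryos precede implantation, and all cells of an embryo went into 1 library. The ES lines came from embryos of that stage and were kept in 2i medium, a culture with kinase inhibitors that keeps them pluripotent, so each ES library is 1 line. Fetal livers were taken in late gestation and adult livers at 15 to 20 weeks of age. All livers were whole tissue, so the endothelial genes were measured in a mixture of cell types, and fewer cells of a type and less RNA per cell cannot be told apart. The labels do not say which livers came from the same litter, so p-values measure the spread between these livers.

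Liver sinusoidal endothelial cells form a fenestrated lining without a continuous basement membrane, and blood plasma passes through it to the hepatocytes. They are scavenger cells: the stabilins Stab1 and Stab2 take up hyaluronan, modified lipoproteins and other waste molecules, and the Fc receptor Fcgr2b takes up immune complexes. The fetal liver is also the main site of blood cell formation in late gestation, so its sinusoids carry large numbers of erythroid and other haematopoietic cells.

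On the mouse assembly GRCm38, GENCODE placed the scavenger and lectin receptors Stab1 at chr14:31139013-31168641, Stab2 at chr10:86841198-87008025, Clec4g at chr8:3707064-3720651, Fcgr2b at chr1:170958617-170976547 and Lyve1 at chr7:110850607-110863239. The growth factor receptors Kdr and Flt4 lie at chr5:75932827-75978458 and chr11:49609263-49652739. The junction genes Pecam1 and Cdh5 lie at chr11:106654217-106750628 and chr8:104101625-104144511, and Oit3 lies at chr10:59422958-59441778. All values below are reads on the exons of these genes. Their joined exon lengths in GENCODE run from 2430 bases in Clec4g to 8228 bases in Stab2. The study counted reads with a gene annotation from the TopHat website, whose exon lengths may differ, so levels per kilobase are approximate. Stab1 overlaps the protein-coding gene Nt5dc2 on the opposite strand, and Stab2, Cdh5, Clec4g and Fcgr2b overlap antisense or pseudogene transcripts. The strand setting of the counting step is not given in the sources used here, so reads from such partners could not be told apart from those of the genes. Fcgr2b also has close paralogs among the Fc receptors. Reads without a unique alignment were counted apart from the genes, so shared sequence could lower the counts of these genes.

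The 4 genes that rose from fetal to adult liver, described below, all had a promoter sequence in RefSeq for GRCm38. The 250 bases before each RefSeq start are shown because these members moved in one direction between the stages. Capitals mark GGAAG or its reverse complement CTTCC, the core letters bound by ETS factors, a family that includes several regulators of endothelial genes.
Kdr, chr5:75978456-75978705, minus strand: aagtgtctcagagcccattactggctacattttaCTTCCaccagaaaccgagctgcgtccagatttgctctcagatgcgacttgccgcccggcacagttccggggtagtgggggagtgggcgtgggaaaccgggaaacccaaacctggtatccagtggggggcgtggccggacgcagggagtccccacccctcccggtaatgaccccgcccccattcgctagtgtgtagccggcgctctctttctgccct
Clec4g, chr8:3720652-3720901, minus strand: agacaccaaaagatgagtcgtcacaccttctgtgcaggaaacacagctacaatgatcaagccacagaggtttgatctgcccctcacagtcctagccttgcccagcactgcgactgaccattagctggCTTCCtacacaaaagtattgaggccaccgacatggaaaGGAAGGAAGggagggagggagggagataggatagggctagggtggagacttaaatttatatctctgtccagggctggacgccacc
Fcgr2b, chr1:170976072-170976321, minus strand: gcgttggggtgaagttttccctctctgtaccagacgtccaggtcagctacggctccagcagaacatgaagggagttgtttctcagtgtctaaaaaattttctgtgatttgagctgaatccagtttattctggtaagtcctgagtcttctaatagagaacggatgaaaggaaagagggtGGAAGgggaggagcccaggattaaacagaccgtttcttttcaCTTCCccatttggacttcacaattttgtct
Flt4, chr11:49609429-49609678, plus strand: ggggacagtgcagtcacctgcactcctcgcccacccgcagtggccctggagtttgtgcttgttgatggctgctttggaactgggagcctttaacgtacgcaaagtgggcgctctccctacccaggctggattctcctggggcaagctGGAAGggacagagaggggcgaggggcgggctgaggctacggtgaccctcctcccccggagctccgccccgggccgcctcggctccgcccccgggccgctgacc
The Kdr and Flt4 windows held 1 match each, the Fcgr2b window 2 and the Clec4g window 3, of which a pair overlap by a base. Of 32851 RefSeq windows of the same length, 64.1% held at least 1 match on either strand. The windows of Fcgr2b and Flt4 lie inside the longer GENCODE gene bodies. Stab1 and Stab2, which were not called between the stages, also had windows, with 3 matches and 1 match. Lyve1, Pecam1, Cdh5 and Oit3 had no entry.

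Reads assigned to genes ranged from 1567583 to 4757610 in adult livers, from 5145371 to 8499603 in fetal livers, from 9857929 to 10386931 in ES lines and from 4659656 to 7725432 in eight-cell embryos. A count of 3 reads therefore corresponded to 0.631 to 1.91 CPM, read counts scaled to a common library size, in adult livers and to 0.353 to 0.583 CPM in fetal livers, before scaling between libraries. Floors and the intervals of the ratios of fetal liver to ES cells cover counting error only. Intervals of log2 differences rest on the SE of the test, which includes the spread between livers. The hepatocyte list was high in every liver, with summed levels of 17903 to 24812 CPM in fetal and 40286 to 60061 CPM in adult livers over 7 listed genes, so the tissue labels fitted the markers. Of the adult livers, 8 (4 male, 4 female) had under 40% of their mapped reads on genes, as had 2 male fetal livers, a limit set for this work. Results are given without these adult livers where they change, and fetal comparisons were not run without both of those fetal livers. Fetal liver female replicate 14 stood apart, with 154 CPM of the epithelial gene Epcam against 1.22 to 9.52 CPM in the other 23 fetal livers, and it had the lowest Stab2, Lyve1, Oit3 and Flt4 levels of the stage. Fetal liver male replicate 11 had the largest share of reads assigned to no gene (49.0%, against 34.1% to 44.7% in the others) and the highest Stab1, Cdh5 and Flt4 levels.

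Both liver stages carried all 10 genes, while 9 of the 10 did not exceed 2.52 CPM in any eight-cell embryo or ES line. The exception was Pecam1, an adhesion molecule of endothelial junctions that is also known from the inner cell mass and ES cells. Pecam1 had reads in 12 of 12 embryos, from 25 to 870 reads per library, and its level ran from 5.00 to 126 CPM with a mean of 61.6 ± 31.2 CPM (SD, n = 12). The male embryos spread over this whole range, and the female embryos lay between 47.0 and 78.2 CPM (59.1 ± 11.4 CPM, n = 6). In the 4 ES lines it lay between 74.5 and 95.8 CPM (82.8 ± 9.14 CPM). Stab1, Stab2, Lyve1, Kdr, Cdh5 and Oit3 had 0 of 73213414 reads over the 12 embryos, and 3 reads of that total correspond to 0.0410 CPM. Clec4g had 22 reads in 2 male embryos, Flt4 had 10 reads in 1 female embryo and Fcgr2b had 3 reads in 2 embryos. The eight-cell libraries were made with a single-cell protocol and the other libraries with a stranded total RNA kit, so the embryos were described and not tested against the other stages.

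**Figure D1:**
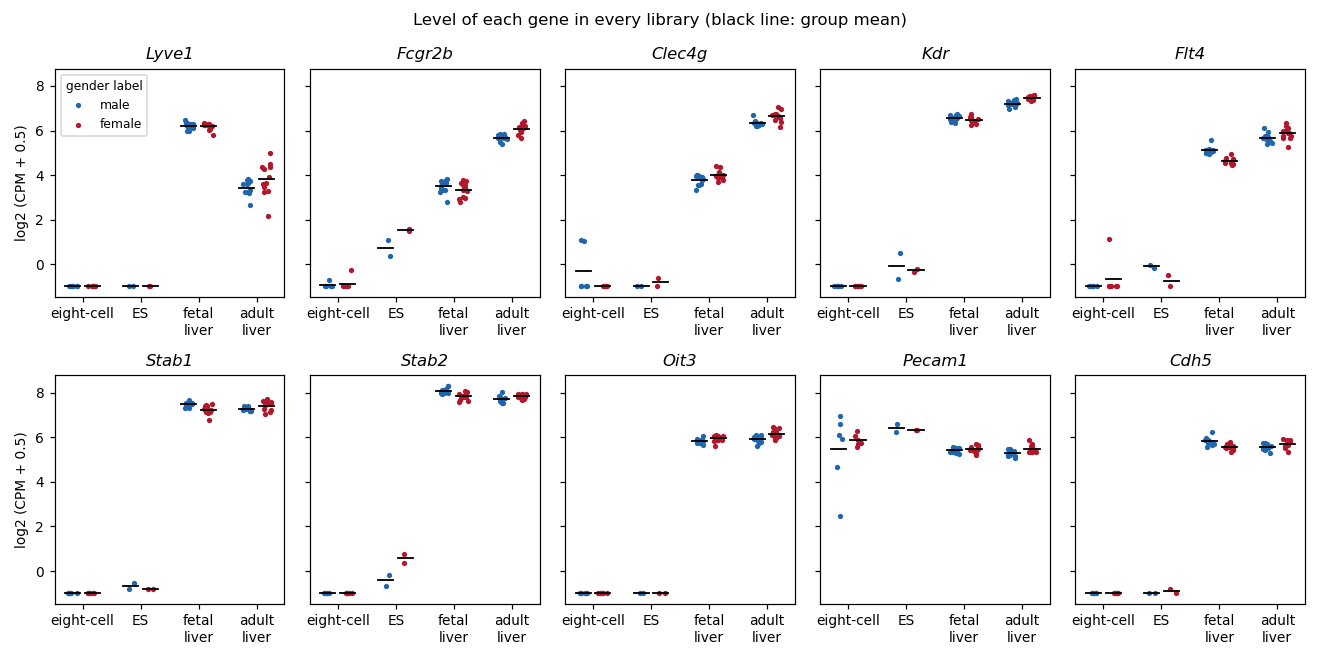
Level of each of the 10 genes in all 64 libraries, as log2 (CPM + 0.5), by stage on the horizontal axis. Points are libraries, coloured by gender label, and black lines are group means. Only Pecam1 was well above the bottom of the axis in all 4 stages, Lyve1 dropped from fetal to adult liver without overlap, and Clec4g and Fcgr2b rose without overlap.

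The order of the genes in liver, on the scale of CPM per kilobase of GENCODE exon, changed between the stages. In fetal liver Stab2 was highest at 30.5 ± 3.84 (SD, n = 24), followed by the hyaluronan receptor Lyve1 at 25.3 ± 2.46, and Fcgr2b was lowest at 2.72 ± 0.590. In adult liver Clec4g was highest at 37.1 ± 6.88 and Lyve1 was lowest at 4.46 ± 2.08. Stab2 exceeded Lyve1 in 24 of 24 fetal livers, and Clec4g exceeded the next gene, Kdr, in 24 of 24 adult livers. Some neighbours in the order did not separate: Oit3 exceeded Stab1 in 13 of 24 fetal livers, and Kdr exceeded Stab2 in 16 of 24 adult livers. The middle of both orders was held by Stab1 (20.7 per kilobase in both stages), Cdh5 (12.4 in the adult) and Pecam1 (10.5 fetal, 10.1 adult). The 10 levels summed to 790 ± 69.4 CPM in fetal and 925 ± 88.4 CPM in adult livers. When scaled by library totals alone they summed to 960 ± 87.1 CPM in fetal and 759 ± 76.2 CPM in adult livers, so the order of the stages turned over.

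**Figure D2:**
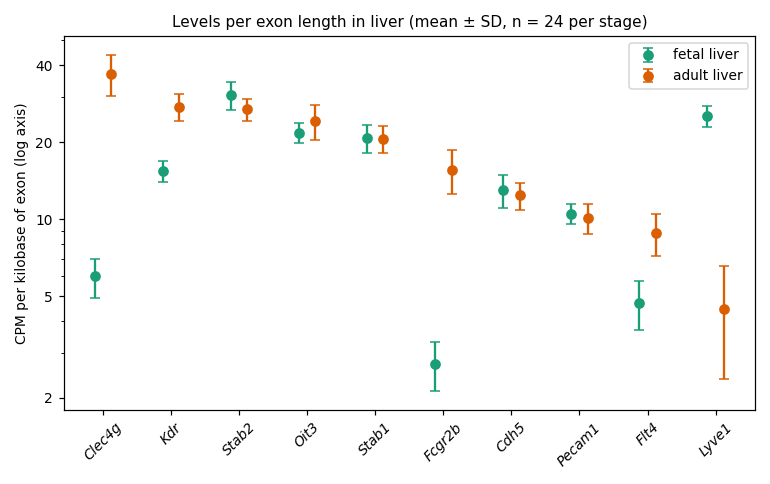
Mean level per kilobase of GENCODE exon (CPM per kilobase, log axis) of each gene in fetal and adult liver, ordered by the adult level. Error bars are SD over 24 livers. Clec4g went from 5.97 to 37.1 and Lyve1 from 25.3 to 4.46, while Stab1 was at 20.7 in both.

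The first comparison asked how the sinusoidal genes differ between late gestation and adult life. They did not move together: 4 were higher in adult liver (Clec4g, Fcgr2b, Flt4 and Kdr), Lyve1 was lower, and the other 5 were not called. A gene was called at an adjusted p under 0.1 and an absolute log2 difference above 0.5, with edgeR's quasi-likelihood test and Benjamini-Hochberg adjustment over 13026 genes, the male and female livers of each stage weighted equally. By this rule 67.1% of all genes tested were called (31.7% higher, 35.4% lower), so 5 of 10 members is no more than the background. The median log2 difference of the members was 0.08, against -0.05 over all genes.

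Clec4g, the C-type lectin LSECtin, had 9.47 CPM in the lowest fetal liver, a median of 14.7 and 20.7 in the highest. Its adult levels ran from 71.0 through a median of 83.7 to 131 CPM, so the stages did not overlap. The difference was 6.20-fold (log2 2.63 ± 0.06 SE, edgeR adjusted p = 2.4e-42). Fcgr2b, the inhibitory receptor for the Fc part of IgG, ran from 6.32 through 10.6 to 13.9 CPM in fetal livers and from 41.2 through 56.1 to 84.7 CPM in adult livers. Here too every adult liver was above every fetal liver, by 5.64-fold on average (log2 2.49 ± 0.07 SE, edgeR adjusted p = 1.0e-37).

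The members that encode receptor kinases of the vascular endothelial growth factors (VEGF), Kdr and Flt4, were also higher in the adult. The receptor gene Flt1, in a companion list described below, was not called higher. Kdr, the main VEGF-A receptor of endothelium, ran from 75.7 through 91.8 to 106 CPM in fetal and from 125 through 163 to 193 CPM in adult livers, without overlap. Its log2 difference was 0.83 ± 0.04 (SE, 1.78-fold, edgeR adjusted p = 1.6e-28). Flt4, the receptor for VEGF-C and VEGF-D, ran from 21.6 through 30.5 to 47.8 CPM in fetal and from 37.8 through 53.1 to 81.2 CPM in adult livers. The Flt4 ranges overlapped at their edges, and the log2 difference was 0.93 ± 0.06 (SE, 1.91-fold, edgeR adjusted p = 1.85e-21).

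Lyve1, a receptor for hyaluronan that marks both sinusoidal and lymphatic endothelium, was the only member called lower. Fetal livers had 54.7 CPM at the lowest, a median of 74.0 and 88.4 at the highest, and adult livers had 3.96, 11.7 and 31.8 CPM. The highest adult liver was below the lowest fetal liver, and the difference was 5.72-fold (log2 -2.52 ± 0.09 SE, edgeR adjusted p = 6.0e-32). The adult values rested on 5 to 66 reads per library, against 477 to 827 in fetal livers. Between adult livers the coefficient of variation of Lyve1 was 46.6%, the largest of the 10 genes in either liver stage, where counting error alone gives 21.9%.

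The stabilins and the junction genes stayed near their fetal levels. Stab1 ran from 109.6 through 169.8 to 204.8 CPM in fetal and from 133 through 163 to 209.8 CPM in adult livers (log2 0.00, 95% interval -0.09 to 0.09). Stab2 ran from 192 through 251 to 318 CPM and from 185 through 223 to 263 CPM (log2 -0.18, -0.25 to -0.10). The Stab2 difference had an edgeR adjusted p of 4.9e-05 but was smaller than the size limit, as was that of Oit3, a gene for a secreted protein with a zona pellucida domain (log2 0.16, 0.07 to 0.25). For the adhesion molecule Pecam1 the interval was -0.15 to 0.02 and for Cdh5, the VE-cadherin of endothelial junctions, -0.16 to 0.02.

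These stage differences depend on how the libraries were scaled. The main scaling used TMM factors, which set libraries against each other on the genes that differ least between them. With library totals in their place, the median log2 of all genes moved from -0.05 to -0.61 and the share of calls that were higher in the adult from 47.3% to 25.4%. Under that scaling Kdr (0.26) and Flt4 (0.37) lost their calls and Stab1 (-0.57), Stab2 (-0.74), Pecam1 (-0.63) and Cdh5 (-0.64) were called lower, while Clec4g, Fcgr2b and Lyve1 kept theirs. Relative to the median of all genes, no member's difference moved by more than 0.0031 between these scalings. A change of scaling shifts all genes by nearly the same amount, so this was fixed in advance and does not test the differences.

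**Figure D3:**
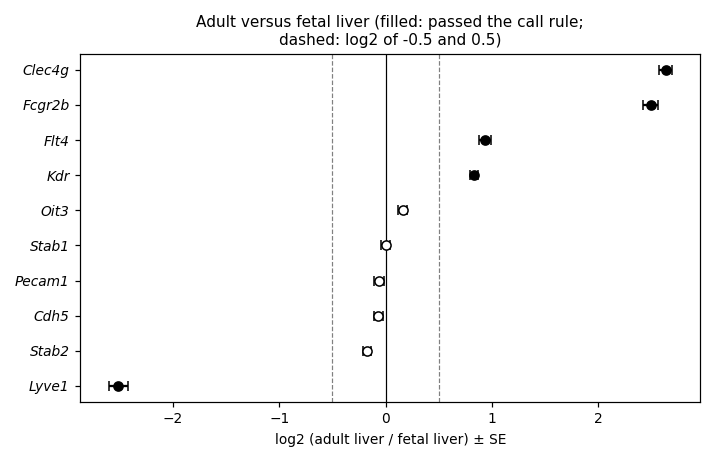
Adult versus fetal difference of each gene as log2 ± SE from edgeR (24 livers per stage, TMM scaling). Filled points passed the call rule and dashed lines mark the size limit of 0.5. Clec4g at 2.63 and Fcgr2b at 2.49 lie far to the right, Lyve1 at -2.52 far to the left, and 5 open points lie near 0.

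Other genes of the sinusoidal endothelium, from a list of 16, were also mixed in direction. Of 15 tested, 8 rose, 2 fell (the lectin receptor gene Clec1b and the transcription factor gene Tfec) and 5 were not called, with a median log2 of 0.92 against -0.05 for all genes. The smallest adjusted p-values in this list were those of the lysosomal protease Ctsl (2.18-fold), the growth factor Bmp2 (4.30-fold) and the membrane trafficking gene Ehd3 (1.90-fold), all higher in the adult. Not all genes of this list are limited to endothelium. The list summed to 1444 CPM in eight-cell embryos, made with another protocol, and to 844 CPM in fetal livers. In the embryos 9 of its genes had no reads. Of 36 tested pan-endothelial genes, 10 rose, 11 fell and 15 were not called (median log2 0.10). In that list the transcription factor genes Tal1 and Lmo2, which blood cells share, were lower (log2 -6.83 and -4.56), and the receptor phosphatase gene Ptprb was 6.08-fold higher.

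Among the other VEGF and angiopoietin genes, 3 of 11 tested rose: the ligand Vegfa (2.09-fold) and the co-receptors Nrp1 (4.11-fold) and Nrp2 (2.76-fold). The angiopoietin genes Angpt1 and Angpt2 fell (log2 -1.40 and -1.10), and 6 genes were not called. Of the 5 tested Fc receptor genes other than Fcgr2b, the neonatal receptor Fcgrt rose (3.32-fold), and Fcgr1, Fcgr3 and the signalling subunit Fcer1g fell. Fcgr3, a close paralog of Fcgr2b, went from 43.0 ± 6.05 to 12.3 ± 4.79 CPM, in the opposite direction to Fcgr2b.

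Markers of other cell types moved between the same livers. The erythroid list was lower in the adult for 7 of 7 tested genes (summed level 3633 to 5607 CPM in fetal and at most 239 CPM in adult livers, with Ermap at 0 reads in the adult), as were 7 of 7 megakaryocyte, 7 of 7 neutrophil and 5 of 5 B cell genes. The hepatocyte list was higher for 6 of 6. Of 9 macrophage and Kupffer cell genes 2 were higher (Clec4f, Vsig4) and 5 lower, of 8 stellate cell genes 5 were higher and 1 lower, and of 5 cholangiocyte genes 1 was higher and 3 lower. In the lymphatic endothelial list Prox1 was higher, Reln, which is also in the stellate list, was lower, and Ccl21a had no reads in any liver. Whether Prox1 and Reln report lymphatic endothelium in whole liver was not tested. The part of these lists in the differences of the 10 genes was not tested.

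The second comparison asked whether male and female adult livers differ. All 10 genes had lower levels in males, by 0.16 to 0.58 on the log2 scale, with a median of -0.25 against -0.00 over all genes. Only Lyve1 passed the call rule, where 9.49% of 10372 genes tested were called (3.01% higher, 6.48% lower). Of the other 9, all but Flt4 had an adjusted p under 0.1 and missed the size limit of 0.5. Without that limit 9 members were called, as were 1563 genes higher and 1837 genes lower in males.

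Fcgr2b had the clearest separation by p-value among the members. Male adult livers had 41.2 CPM at the lowest, a median of 50.8 and 56.5 at the highest, and female livers had 49.9, 69.3 and 84.7 CPM. All 12 males lay below the female median (log2 -0.44 ± 0.07 SE, edgeR adjusted p = 3.0e-05). Kdr ran from 125 through 147 to 171 CPM in males and from 159.9 through 178 to 193 CPM in females. All 12 females were above the male median and all 12 males below the female median (log2 -0.29 ± 0.05 SE, edgeR adjusted p = 0.00010). Clec4g ran from 72.5 through 77.7 to 105 CPM in males and from 71.0 through 102 to 131 CPM in females (log2 -0.35 ± 0.08 SE, edgeR adjusted p = 0.00067). Here 11 of 12 males lay below the female median.

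Lyve1, the called member, had the widest spread. Male livers ran from 5.75 through 10.7 to 13.7 CPM and female livers from 3.96 through 13.2 to 31.8 CPM, so the female range enclosed the male range. The log2 difference was -0.58 ± 0.20 (SE, edgeR adjusted p = 0.035). Adult liver female replicate 18 held the highest Lyve1 level, and without it the difference was -0.43 (adjusted p = 0.083) and no member was called. That liver also had the highest Pecam1 level of the adult livers and the next to highest summed level of the macrophage list (1056 CPM). Among the 8 livers with under 40% of mapped reads on genes the Lyve1 difference was -0.09, Stab1 was higher in males by 0.05, and Fcgr2b was called (-0.54).

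The remaining members differed by less. Oit3 ran from 48.9 through 60.6 to 68.1 CPM in males and from 57.7 through 70.9 to 87.5 CPM in females (log2 -0.29 ± 0.07 SE, edgeR adjusted p = 0.0031). In livers with under 40% of mapped reads on genes, the Oit3 means were 61.7 CPM in males and 62.0 CPM in females (n = 4 each). In the other adult livers they were 59.1 and 77.0 CPM (n = 8 each). Pecam1 had 38.9 ± 3.80 CPM in males and 44.5 ± 5.78 in females, and Cdh5 46.5 ± 4.32 and 52.4 ± 6.07 CPM (SD, n = 12 each). The stabilins differed least, with 157 ± 9.78 against 174 ± 23.5 CPM for Stab1 (log2 -0.17) and medians of 211 against 233 CPM for Stab2 (log2 -0.16). Flt4 had 51.4 ± 7.28 CPM in males and 59.3 ± 11.6 in females (log2 -0.21, 95% interval -0.40 to -0.02, edgeR adjusted p = 0.11).

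**Figure D4:**
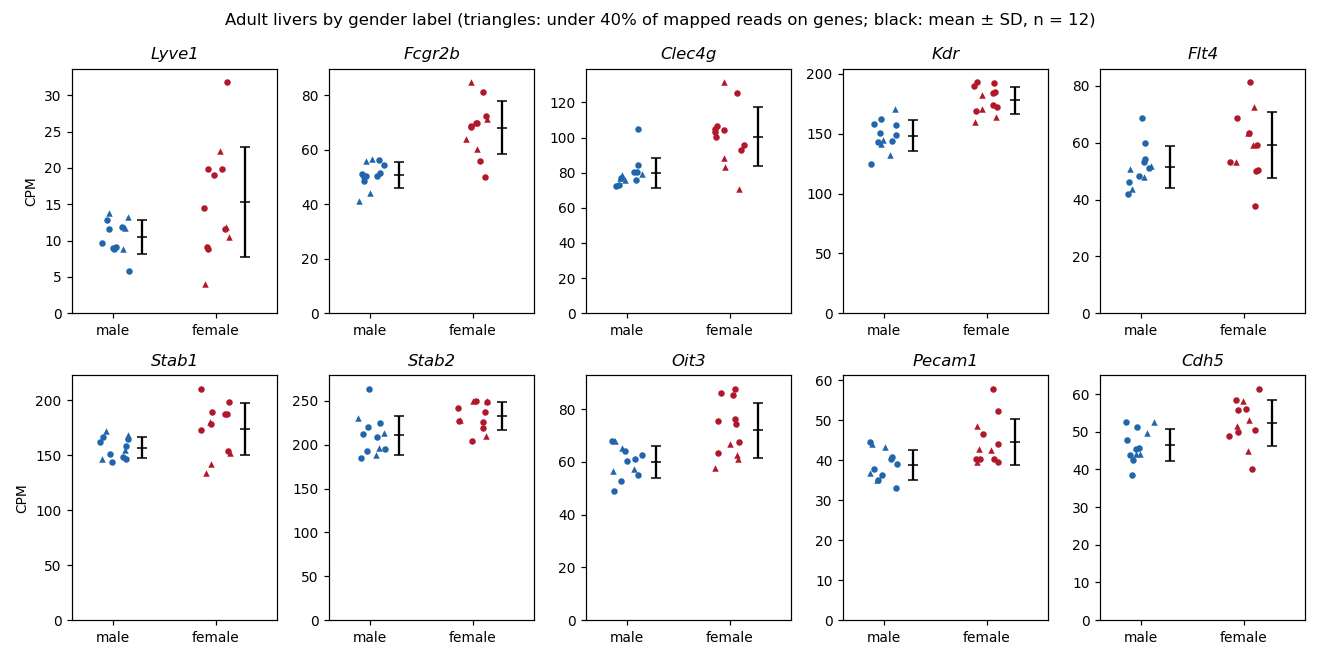
CPM of each gene in the 24 adult livers by gender label (12 male, 12 female), with axes from 0. Points are livers, triangles are livers with under 40% of mapped reads on genes, and black bars are mean ± SD. Kdr and Fcgr2b show the least overlap between males and females, and 1 female liver at 31.8 CPM stands above the rest for Lyve1.

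The medians of the companion lists were also below 0 in adult liver, with few calls. Of the other sinusoidal genes 0 of 13 tested were called, though the mannose receptor Mrc1 (log2 -0.31), Ehd3 (-0.34) and the coagulation factor gene F8 (-0.35) had adjusted p-values of 8.7e-06, 3.9e-05 and 0.00010 by edgeR, and the list median was -0.30. Of 29 pan-endothelial genes 2 were lower in males, the transcription factor gene Erg and the sialomucin gene Emcn (median -0.25). In this list the angiopoietin receptor Tek (-0.42), the transcription factor Ets1 (-0.29) and the water channel Aqp1 (-0.27) had the smallest p-values, none past the size limit. Of 7 tested VEGF and angiopoietin genes Nrp2 was lower (-0.95, 35.6 to 82.8 CPM in females and 18.7 to 39.8 CPM in males), and Tek and Vegfa (-0.23) were not called. Of the 5 Fc receptor genes Fcgr1 was called lower (-0.51), and Fcgr3 (-0.48) and Fcgrt (-0.14) were not called.

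Lists for other cell types also moved with the gender label. The macrophage and Kupffer cell list was lower in males for 5 of 9 genes (median -0.51), with summed levels of at most 835 CPM (median 594) in males and of 598 to 1244 CPM (median 784) in females. Of 8 stellate cell genes only Rgs5 was lower, although the list median was -0.33 and the summed levels were 648 to 899 and 834 to 1040 CPM. None of 6 hepatocyte genes was called (median -0.15), with summed levels of 40286 to 53570 CPM in males and 49736 to 60061 CPM in females. The summed erythroid list was 188 to 239 CPM in males and at most 56.2 CPM in females, where Alas2, the erythroid enzyme of haem synthesis, was the only member tested and was higher in males (log2 2.79). The neutrophil list summed to at most 9.16 CPM in any adult liver, with Camp at 0 reads, and none of its genes, the megakaryocyte genes or the B cell genes passed the filter on low counts. Of the cholangiocyte genes only Spp1 was tested, and it was lower in males. Whether these lists had a part in the differences of the 10 genes was not tested.

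In fetal liver 7 of the 10 members had higher and 3 lower levels in males. Of the 10 members Flt4 was higher in males and none was lower, where 4.64% of 12930 genes were called (3.81% higher, 0.828% lower). Flt4 ran from 30.3 through 34.0 to 47.8 CPM in males and from 21.6 through 23.7 to 30.7 CPM in females. All 12 males were above the female median and the ranges met only at their ends (log2 0.53 ± 0.07 SE, edgeR adjusted p = 1.4e-06). Cdh5 (56.9 ± 7.44 against 46.8 ± 3.69 CPM), Stab2 (271 ± 24.8 against 231 ± 24.1 CPM) and Stab1 (179 ± 12.9 against 153 ± 19.9 CPM) were higher in males by 0.31, 0.26 and 0.25 on the log2 scale with adjusted p-values under 0.1, short of the size limit. Clec4g was lower in males by 0.22 with an adjusted p of 0.060, and Lyve1, Kdr, Pecam1, Fcgr2b and Oit3 had log2 values from -0.10 to 0.18 with adjusted p above 0.1.

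Male and female fetal livers also differed in the share of reads that the counting step assigned to no gene. Such reads made up 39.9% to 49.0% of the counted total in males and 34.1% to 38.1% in females, without overlap. With each liver's share of gene reads added to the fit, Flt4 was higher by 0.39 (edgeR adjusted p = 0.088) and not called. Because the percentages above did not overlap between males and females, that fit could not clearly separate a related share from the gender label. In that fit Stab1, Cdh5 and Stab2 were at 0.22, 0.15 and 0.12 with edgeR adjusted p-values of 0.40, 0.59 and 0.62, the median of the members went from 0.15 to 0.01, and the calls over all genes dropped from 600 in all to 18 higher and 11 lower. Without male replicate 11 the Flt4 difference was 0.47 and no member was called. In the companion lists 1 of 14 sinusoidal genes (Dnase1l3), 4 of 37 pan-endothelial genes (Eng, Sox7, Klf2, Nr2f2) and 1 of 11 VEGF and angiopoietin genes (Figf) were higher in males, and 1 of 5 Fc receptor genes (Fcgrt) was lower. Fcgrt had 320 CPM in female replicate 14 and 49.9 to 81.8 CPM in the other fetal livers. Of 5 cholangiocyte genes Krt19, Krt7 and Epcam were lower and Sox9 higher in males. Female replicate 14 held 80.4 CPM of Krt19 against 2.38 to 9.20 CPM in the other fetal livers, and its Epcam level, given above, also stood apart. Prox1 of the lymphatic list and the B cell gene Pax5 were higher in males, and no gene of the hepatocyte, macrophage, erythroid, neutrophil or stellate lists was called. The part of these lists in the Flt4 difference was not tested.

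The difference between the stages in the male to female contrast was tested directly with an interaction term. It was below 0 for all 10 members and passed the call rule for 3 of them, Flt4, Lyve1 and Fcgr2b, where 13.7% of 13026 genes were called (5.19% higher, 8.53% lower). The Flt4 interaction was -0.69 ± 0.12 (SE, edgeR adjusted p = 1.0e-05). Males had the higher Flt4 level in the fetus, and their lower adult level did not pass the adjusted p limit, as given above. For Lyve1 the interaction was -0.60 ± 0.19 (edgeR adjusted p = 0.014) and for Fcgr2b -0.58 ± 0.14 (edgeR adjusted p = 0.0015). Cdh5 (-0.46), Stab1 (-0.38), Stab2 (-0.38) and Kdr (-0.35) had adjusted p-values from 0.00013 to 0.0010 and missed the size limit, and Pecam1, Clec4g and Oit3 had values from -0.15 to -0.09 with adjusted p above 0.1. Without the adult livers under 40% of mapped reads on genes 5 members were called, with Stab1 (-0.51) and Cdh5 (-0.52) added, and the median of the members went from -0.38 to -0.46. Without adult liver female replicate 18, Lyve1 was at -0.48 and not called and Cdh5 was called at -0.50. The fetal male livers' larger share of reads assigned to no gene, given above, applies to this contrast too.

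**Figure D5:**
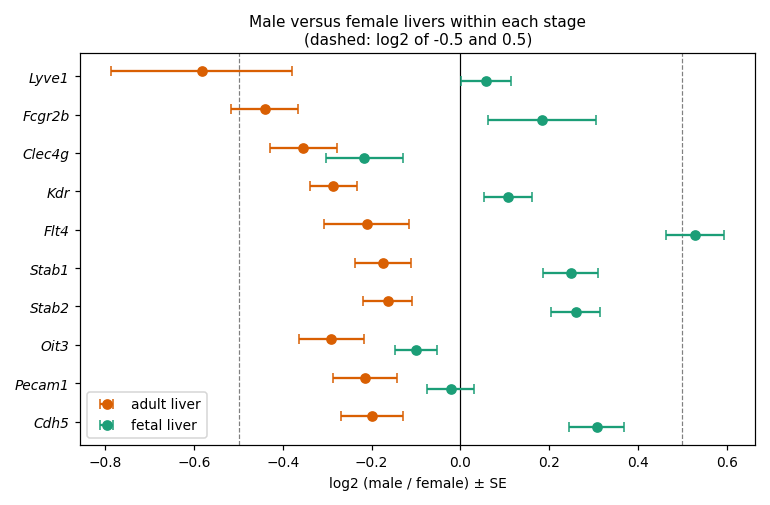
Male versus female difference (log2 ± SE, edgeR, 12 livers of each gender label per stage) of each gene in adult and fetal liver, with dashed lines at the size limit of 0.5. All 10 adult points lie left of 0, from -0.58 to -0.16, and 7 fetal points lie right of 0, up to 0.53 for Flt4.

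In the companion lists the interaction was called lower for 3 of 15 sinusoidal genes (Dnase1l3, Bmp2, Plxnc1), 4 of 36 pan-endothelial genes (Eng, Emcn, Ptprb, Notch1) and 2 of 11 VEGF and angiopoietin genes (Nrp2, Angpt1). Of the 5 Fc receptor genes Fcgr1 was called lower and Fcgrt higher. List medians lay between -0.39 and -0.27, against 0.01 over all genes. Of the marker lists the interaction was lower for 3 of 9 macrophage genes and for Prox1 and Reln of the lymphatic list, lower for Cd22 among the B cell genes and higher for Alas2.

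ES cells gave a reference without endothelium. Against fetal liver 9 members were lower and Pecam1 was higher, where 76.5% of 14858 genes were called (35.3% higher, 41.2% lower). Pecam1 was 1.97-fold higher in ES cells (log2 0.98 ± 0.06 SE, edgeR adjusted p = 2.1e-15), and all 4 ES lines were above all 24 fetal livers. Lyve1 and Oit3 had 0 reads in the 4 lines, so that fetal liver was at least 1424-fold and 1151-fold higher, with 3 reads over the 4 lines as the floor. Cdh5 had 1 read and Clec4g 2 reads over the lines, which puts the ratio of fetal liver to ES cells at 3023 (95% counting interval 543 to 119403) and 423 (117 to 3493). For Stab1, with 6 reads, the ratio was 1610 (739.9 to 4388).

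Fcgr2b differed least among the 9. It had 12 to 35 reads in each ES line (1.81 ± 0.766 CPM, SD, n = 4) and was 5.82-fold lower than in fetal liver (log2 -2.54 ± 0.21 SE, edgeR adjusted p = 8.7e-13). Flt4 had 16 reads over the lines, Kdr 25 and Stab2 36, and fetal liver was 107-fold, 213-fold and 406-fold higher by summed reads. In the companion lists 14 of 14 sinusoidal genes and 31 of 37 pan-endothelial genes were lower in ES cells, and the transcription factor genes Gata2, Klf2 and Klf4 were higher. Of 11 VEGF and angiopoietin genes 8 were lower and Vegfc was higher, and 5 of 5 Fc receptor genes were lower. The pluripotency genes Pou5f1, Nanog, Sox2 and Zfp42 were all higher in ES cells.

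Within a stage the 10 genes varied together only in part. After the mean of each gender label was subtracted, 30 of the 45 pairs of members had a correlation above 0 over 24 adult livers (median r 0.19) and 35 of 45 over 24 fetal livers (median r 0.29). The highest pairs were Lyve1 with Pecam1 (r = 0.72) in the adult and Lyve1 with Oit3 (r = 0.71) in the fetus, and Clec4g with Flt4 was below 0 in both (r = -0.34 and -0.21). Adult liver female replicate 18 held the highest level of both Lyve1 and Pecam1. Fetal liver female replicate 14 held the lowest of both Lyve1 and Oit3. Correlations without these livers were not computed. All points of a pair share a library, its scaling and its mix of cells. Of 10230 other genes at 5 CPM or more in adult liver, the 3 most like the mean standardised level of the members were the cytoskeletal linker Macf1 (r = 0.69), Otud3 (r = 0.67) and the integrin gene Itga9 (r = 0.67). The next 7, with r from 0.64 to 0.66, were Fam38b, Zdhhc14, Chst2, Gm6907, Ccdc137, Clk3 and Wipf1. In fetal liver, of 10952 genes, they were Mst1 (r = 0.79), the prothrombin gene F2 (r = 0.78) and Arhgef3 (r = 0.78). The next 7 were Serping1, Clca1, Proz, C1s, Lbp, Hsd3b7 and Entpd1 (r from 0.76 to 0.77), of which Serping1, Proz, C1s and Lbp encode proteins of the blood plasma. The median r of the companion genes was 0.17 in adult and 0.26 in fetal liver, against -0.00 and -0.02 over all genes. The genes named as most like the members were picked as the highest r of all those genes over 24 livers. How high r would run among unrelated genes was not tested.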

How the data were processed

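RNA-seq was done on eight-cell embryos, ES cells and fetal and adult livers, grouped by the stage and gender labels. The authors aligned reads to mm10 (GRCm38) with TopHat2 2.0.4 and Bowtie2 2.1.0, handled alignments with SAMtools 0.1.18, removed duplicates with Picard and deposited raw counts per gene from HTSeq. Removal of duplicates can lower the counts of highly expressed genes. The 5 rows that name no gene were left out of library sizes and tests.

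Counts were filtered with filterByExpr, scaled with TMM factors and fitted with edgeR 4.0.16 in R 4.3.3 (robust quasi-likelihood F test, Benjamini-Hochberg adjustment over all genes tested). Liver comparisons shared 1 fit where both stages entered, and the gender contrasts were fitted within a stage. SE is the absolute log2 difference divided by the square root of F. CPM of livers used TMM factors from the livers of both stages together. CPM of ES lines and embryos used factors from all libraries, aligned on the fetal livers. The gender contrasts within a stage and the ES comparison were fitted with factors of their own libraries. The scripts were tested on simulated data. Alternatives were DESeq2 1.42.0, other scalings, no filter, no log2 threshold, a replicate block, a share covariate and subsets of livers. Leaving out single livers was chosen after seeing the data.

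All 10 genes are named in every comparison. From each companion list the 3 genes with the smallest adjusted p in adult versus fetal liver and in adult males versus females are named, and the 10 genes most like the members in each liver stage. Other companion and marker genes were named after their values were seen. The members and lists were chosen with earlier results of these data known. Gene positions and exon lengths came from GENCODE and promoters from RefSeq, where 6 of the 10 matched.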

Additional observations from a re-analysis of the deposited data

Results flagged for a closer look

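Of 6 groups of eight-cell embryos in which a member with reads could be examined, 3 held a library far from the others by Dixon's criterion. In each of the 3 groups every other embryo had 0 reads, so that any read met the criterion, and nothing further was drawn from it. Fcgr2b was at 0.111 CPM in male replicate 4 and at 0.323 CPM in female replicate 9, with 0 reads in the other embryos. Flt4 was at 1.66 CPM in female replicate 10 and had 0 reads in the other embryos. The Fcgr2b values rest on 3 reads in all and the Flt4 value on 10 reads.

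The difference between adult and fetal liver in the male to female contrast passed the interaction test for Lyve1 (log2 -0.60), Fcgr2b (-0.58) and Flt4 (-0.69). The Lyve1 call was lost without adult liver female replicate 18 (-0.48). Male and female fetal livers differed in their share of reads assigned to no gene, and the part of that difference in these values was not tested.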

How the results depend on the processing

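Of the results for single members, 873 values under the alternatives kept their direction and their side of the threshold, 26 passed it and 7 no longer did, and 14 changed sign. Of the counts and summed levels 343 stayed within 1.5 times or 1 SD and 29 did not. In adult versus fetal liver, library totals gave 2 members higher and 5 lower, with 2399 genes higher and 7034 lower in all (4132 and 4610 with TMM). Without the expression filter 7000 genes were lower, and without the log2 threshold 2 members were lower. Stab1, near 0, turned negative with DESeq2-type size factors (-0.10), library totals (-0.57), no filter (-0.048), DESeq2 (-0.10), in male livers (-0.22), and ran from -0.0142 without adult female replicate 18 through -0.0024 without fetal female replicate 14 to 0.00855 without fetal male replicate 11. Oit3 was at -0.41 with library totals and Cdh5 at 0.14 in female livers. Summed levels with library totals were 123.8 CPM in ES cells, 960.3 in fetal and 759 in adult livers.

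In adult males versus females, no filter gave 515 genes higher, and no log2 threshold gave 9 members lower and 1563 genes higher and 1837 lower. Stab1 was at 0.055 in the livers under 40% of mapped reads on genes. In fetal livers no filter gave 412 genes lower and DESeq2 gave 68. No log2 threshold gave 4 members higher and 1 lower, with 2287 genes higher and 2520 lower. The share covariate gave 0 members higher, with 18 genes higher and 11 lower, and put Kdr at -0.029 and Fcgr2b at -0.065. For the interaction, no log2 threshold gave 7 members lower, with 2441 genes higher and 1943 lower, and 5 members were lower without the adult livers under 40%. The causes were not tested.

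With 1 liver left out, members lower in adult males numbered 0 to 1 (0 without female replicate 18), among 309 to 349 genes higher and 622 to 713 lower. Members higher in fetal males numbered 0 to 1 (0 without male replicate 11), among 381 to 564 genes higher and 50 to 128 lower, with 50 without female replicate 14. Pecam1 in fetal livers ran from -0.0475 to 0.000801, the latter without female replicate 15. With 1 ES line left out, 1 member was higher and 9 lower, among 5345 to 5456 and 6216 to 6230 genes. Replicate numbers did not pair the livers: over 24 pairs the correlation of same-numbered livers ran from -0.120 to 0.0751, and 1 adult liver correlated best with its own number. The replicate block gave 4 members higher and 1 lower, 4130 and 4623 genes in all, and Stab1 at -0.000958. Depth limits Lyve1 in the adult, where it had as few as 5 reads.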
